A study of Mus musculus with 6 samples.

Results

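Clusters of regions that carried a peak of open chromatin in all 3 libraries of one tissue of the embryonic mouse palate, and in none of the 3 libraries of the other, were described here. Both tissues came from C57BL/6 embryos at E14.5, when the palatal shelves are about to fuse. Shelves were digested with trypsin, and the epithelium, basal and periderm layers together, was peeled off as a sheet. The tissue left behind, largely mesenchyme, can hold vessels, nerves and blood cells, and no cell sort followed. Each library came from about 20000 cells. Libraries of a tissue are labelled as biological replicates, and no label ties an epithelium library to a mesenchyme library. Sources differ on the material in a replicate, which is 3 embryos in the design text, 5 palatal shelves in the treatment protocol and a different number of embryos in the methods.

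The members were chosen by peak presence in these same libraries. Merging all overlapping peaks (1 bp or more) of the 6 lists gave 707876 regions, and 342690 of these were found in at least 2 libraries. Of those, 10206 (2.98%) were epithelium-only and 7554 (2.20%) were mesenchyme-only. A region was kept as clustered when another region of the same kind lay no more than 10 kb away, edge to edge, and neighbours were chained. This gave 1856 clustered epithelium-only regions in 857 clusters and 1005 clustered mesenchyme-only regions in 482 clusters, 2861 of 17760 tissue-only regions. Because presence and distance made the choice, the counts given here are descriptions and no test was run on them. A region without a peak is one where none was called, and its chromatin need not be closed. The intervals are exact 95% binomial intervals. They cover counting error only, since neighbouring regions of the same libraries are not independent replicates.

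Open chromatin away from gene starts often holds enhancers, short stretches of DNA that bind transcription factors and act on genes at a distance. A gene that is strongly used in a cell type often has several enhancers nearby, and such groups are known as enhancer clusters. In skin and oral epithelium, the basal layer depends on p63, encoded by Trp63, which works with AP-2, Grainyhead-like and Klf factors. The palate mesenchyme comes largely from cranial neural crest and uses factors such as Prrx1, Lhx8 and Osr2. Peak lists show where chromatin was open, not whether a stretch works as an enhancer.

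The tissue labels were checked at 6 markers each. The epithelial markers Trp63, Krt5, Krt14, Epcam, Cdh1 and Grhl2 had 12 epithelium-only and 3 mesenchyme-only regions assigned. The mesenchymal markers Prrx1, Twist1, Pdgfra, Col1a1, Osr2 and Lhx8 had 1 epithelium-only and 15 mesenchyme-only regions. More regions of the labelled tissue were assigned at 4 of the 6 epithelial markers and at 5 of the 6 mesenchymal markers. These regions were picked by the tissue-only rule. Counts of all peaks within 10 kb of the start overlapped between tissues at every marker but Osr2 and Lhx8. At Trp63 they were 2, 1 and 2 in the epithelium libraries and 0, 1 and 3 in the mesenchyme libraries. At Lhx8 they were 6, 7 and 8 against 14, 10 and 13. Epcam had 1 mesenchyme-only region only, Krt14 had none of either kind, and Osr2 had 1 epithelium-only region only. The lists held between 270003 and 349322 peaks per epithelium library and between 295141 and 341741 per mesenchyme library. The depth in reads is unknown.

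The largest cluster of all was epithelial and lay in a gene desert, which here means far from any protein-coding gene start. It held 6 regions over 25181 bp (chr3:35229342-35254522, mm10), 592 kb past the start of Sox2, which encodes an SRY-box factor used by oral epithelium and many other progenitors, and 512 kb before the start of Atp11b, a phospholipid flippase. Across its span the epithelium libraries had 7, 8 and 9 peaks, against 1, 2 and 1 in the mesenchyme libraries. No protein-coding gene start lay within 100 kb, so the cluster was assigned to no gene. Non-coding genes were not searched. The central 200 bases of its members are printed to show what such a group looks like base by base. They are reference sequence (GRCm38.p6, plus strand), with capitals for matches to any of the 13 motifs described further on.
Sox2 to Atp11b cluster, region 1 chr3:35229540-35229739: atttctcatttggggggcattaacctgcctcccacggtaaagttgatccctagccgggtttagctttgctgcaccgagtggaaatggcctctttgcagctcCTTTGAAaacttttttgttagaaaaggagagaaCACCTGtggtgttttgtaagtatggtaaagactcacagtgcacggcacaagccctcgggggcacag
Sox2 to Atp11b cluster, region 2 chr3:35233043-35233242: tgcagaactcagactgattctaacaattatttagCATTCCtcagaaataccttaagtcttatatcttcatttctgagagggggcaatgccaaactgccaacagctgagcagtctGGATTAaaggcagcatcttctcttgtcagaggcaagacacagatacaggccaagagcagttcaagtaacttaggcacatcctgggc
Sox2 to Atp11b cluster, region 3 chr3:35242488-35242687: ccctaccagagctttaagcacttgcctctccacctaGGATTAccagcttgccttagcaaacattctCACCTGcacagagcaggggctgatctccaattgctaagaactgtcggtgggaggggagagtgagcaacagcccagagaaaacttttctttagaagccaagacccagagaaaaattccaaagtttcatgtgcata
Sox2 to Atp11b cluster, region 4 chr3:35245102-35245301: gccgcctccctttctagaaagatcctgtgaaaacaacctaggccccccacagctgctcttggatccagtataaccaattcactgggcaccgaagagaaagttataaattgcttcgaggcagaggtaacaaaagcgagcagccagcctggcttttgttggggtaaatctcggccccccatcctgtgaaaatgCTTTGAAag
Sox2 to Atp11b cluster, region 5 chr3:35249135-35249334: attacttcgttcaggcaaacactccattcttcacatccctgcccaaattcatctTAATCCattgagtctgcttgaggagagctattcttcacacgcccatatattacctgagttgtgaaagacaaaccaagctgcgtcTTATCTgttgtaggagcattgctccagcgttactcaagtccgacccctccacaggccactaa
Sox2 to Atp11b cluster, region 6 chr3:35254058-35254257: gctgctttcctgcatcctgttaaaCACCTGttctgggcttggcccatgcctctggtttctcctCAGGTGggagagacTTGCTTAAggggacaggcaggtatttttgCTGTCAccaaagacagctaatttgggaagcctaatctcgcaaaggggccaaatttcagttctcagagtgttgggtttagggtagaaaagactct
The letters CAGGTG, an E-box, or their reverse complement stood in regions 1, 3 and 6, and the PITX letters TAATCC in regions 2, 3 and 5. The TCF/LEF letters TTCAAAG stood in regions 1 and 4. Region 4 held that match alone. A match is a description of the letters and not a bound site.

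The regions of this cluster were not equally wide. Region 2 of the Sox2 to Atp11b cluster was covered by peaks over 905, 1027 and 723 bp in epithelium libraries 1, 2 and 3. Region 1 was covered over 415, 273 and 227 bp, and region 3 over 525, 999 and 1006 bp. By the rule, the mesenchyme libraries had 0 bp in all 6 regions.

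Some more epithelial stretches are printed. Those of Trp63 were taken as the members of its cluster, and the others because they held p63 letters. Both Trp63 regions are members of 1 cluster inside the gene. The Nfib region lies in an intron of the gene for nuclear factor I/B, and the last lies in the desert between Camk1g and Plxna2.
Trp63 cluster, region 1 chr16:25774967-25775166: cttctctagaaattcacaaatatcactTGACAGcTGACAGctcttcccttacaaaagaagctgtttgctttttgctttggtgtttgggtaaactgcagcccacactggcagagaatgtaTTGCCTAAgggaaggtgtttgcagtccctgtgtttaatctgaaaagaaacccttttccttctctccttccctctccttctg
Trp63 cluster, region 2 chr16:25780150-25780349: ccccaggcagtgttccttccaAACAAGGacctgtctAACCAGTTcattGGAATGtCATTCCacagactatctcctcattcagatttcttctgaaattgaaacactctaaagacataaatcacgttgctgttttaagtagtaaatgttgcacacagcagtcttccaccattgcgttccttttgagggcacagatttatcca
Nfib cluster, region 1 chr4:82340862-82341061: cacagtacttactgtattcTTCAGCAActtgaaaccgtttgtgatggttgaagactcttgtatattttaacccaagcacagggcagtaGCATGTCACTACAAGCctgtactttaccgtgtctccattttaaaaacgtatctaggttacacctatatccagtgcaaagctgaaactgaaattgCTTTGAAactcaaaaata
Camk1g to Plxna2 cluster, region 3 chr1:193522239-193522438: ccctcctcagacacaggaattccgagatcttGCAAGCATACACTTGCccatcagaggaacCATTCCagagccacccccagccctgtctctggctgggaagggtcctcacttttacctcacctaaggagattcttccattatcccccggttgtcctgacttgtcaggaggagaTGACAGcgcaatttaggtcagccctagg
Trp63 region 1 held MEIS matches (TGACAG) and a C/EBP match (TTGCCTAA), and no p63 or Grainyhead-like match. Trp63 region 2 held a Grainyhead-like match (AACCAGTT), a SOX match (AACAAGG) and 2 TEAD matches (GGAATG and its reverse complement). The Nfib region and the Camk1g to Plxna2 region each held a whole p63 dimer site. The p63 search asked for both parts of the dimer without a mismatch, which is strict, but left the bases at N free.

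The largest mesenchymal cluster held 5 regions over 18456 bp in Mtss1 (chr15:59042366-59060821), which encodes a membrane-bending, actin-binding protein. Its middle lay 30.4 kb inside the gene from its start. Its members are printed because RUNX letters recur in them.
Mtss1 cluster, region 1 chr15:59042491-59042690: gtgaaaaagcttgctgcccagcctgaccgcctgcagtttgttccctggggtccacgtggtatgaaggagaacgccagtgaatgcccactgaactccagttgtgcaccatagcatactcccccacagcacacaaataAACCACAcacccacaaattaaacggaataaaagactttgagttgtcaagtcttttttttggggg
Mtss1 cluster, region 2 chr15:59051339-59051538: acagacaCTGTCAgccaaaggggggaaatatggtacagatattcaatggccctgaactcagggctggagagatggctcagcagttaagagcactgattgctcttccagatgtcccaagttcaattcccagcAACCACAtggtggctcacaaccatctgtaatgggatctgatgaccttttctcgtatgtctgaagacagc
Mtss1 cluster, region 3 chr15:59053117-59053316: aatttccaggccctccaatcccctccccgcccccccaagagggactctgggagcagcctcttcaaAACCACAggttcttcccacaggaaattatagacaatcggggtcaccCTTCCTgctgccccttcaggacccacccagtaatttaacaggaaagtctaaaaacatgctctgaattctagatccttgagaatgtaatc
Mtss1 cluster, region 4 chr15:59057171-59057370: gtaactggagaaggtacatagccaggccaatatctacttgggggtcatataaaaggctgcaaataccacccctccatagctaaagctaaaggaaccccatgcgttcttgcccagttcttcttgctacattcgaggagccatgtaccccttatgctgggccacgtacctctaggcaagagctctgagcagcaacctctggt
Mtss1 cluster, region 5 chr15:59060521-59060720: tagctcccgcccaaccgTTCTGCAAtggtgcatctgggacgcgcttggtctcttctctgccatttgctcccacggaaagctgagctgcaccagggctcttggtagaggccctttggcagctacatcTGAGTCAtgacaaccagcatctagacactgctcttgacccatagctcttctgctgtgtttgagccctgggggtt
The RUNX letters TGTGGTT stood, as their reverse complement, in regions 1, 2 and 3. The match in region 2 lay in soft-masked repeat sequence and the other matches did not. Across the span the epithelium libraries had 6, 6 and 5 peaks and the mesenchyme libraries 10, 12 and 13, so this cluster stood inside a stretch that was open in both tissues. It had 3 regions present in all 6 libraries between its members. The 3 peaks of region 2 were joined through overlap and shared no base. Without mesenchyme library 2 the cluster had 3 regions, and with peaks of at least 300 bp it had 2.

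A mesenchymal cluster of another kind lay in Notch2, the gene of a Notch receptor (chr3:98105473-98109320). It held 3 regions within 3848 bp, with gaps of at most 251 bp, and had 0, 0 and 0 peaks in the epithelium libraries against 3, 4 and 3 in the mesenchyme libraries.
Notch2 cluster, region 1 chr3:98105801-98106000: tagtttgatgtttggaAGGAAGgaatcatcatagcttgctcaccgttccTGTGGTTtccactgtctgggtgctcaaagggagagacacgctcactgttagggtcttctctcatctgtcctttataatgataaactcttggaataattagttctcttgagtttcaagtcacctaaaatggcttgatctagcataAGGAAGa
Notch2 cluster, region 2 chr3:98107009-98107208: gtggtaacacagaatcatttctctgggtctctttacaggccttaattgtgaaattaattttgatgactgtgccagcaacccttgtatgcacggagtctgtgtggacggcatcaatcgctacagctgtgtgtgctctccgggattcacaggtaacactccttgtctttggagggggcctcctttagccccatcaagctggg
Notch2 cluster, region 3 chr3:98108463-98108662: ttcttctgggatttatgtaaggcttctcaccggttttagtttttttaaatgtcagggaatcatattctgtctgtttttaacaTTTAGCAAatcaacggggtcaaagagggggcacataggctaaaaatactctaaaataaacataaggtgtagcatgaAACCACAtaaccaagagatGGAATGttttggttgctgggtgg
Notch2 region 2 lay over a coding exon and held no match. Regions 1 and 3 each held a RUNX match. The peaks of the 3 mesenchyme libraries in region 1 were 399, 703 and 356 bp wide and shared no base. They were joined by overlap alone. Notch2 was also assigned 2 epithelial clusters with 5 regions, elsewhere within 100 kb of its start.

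**Figure D1:**
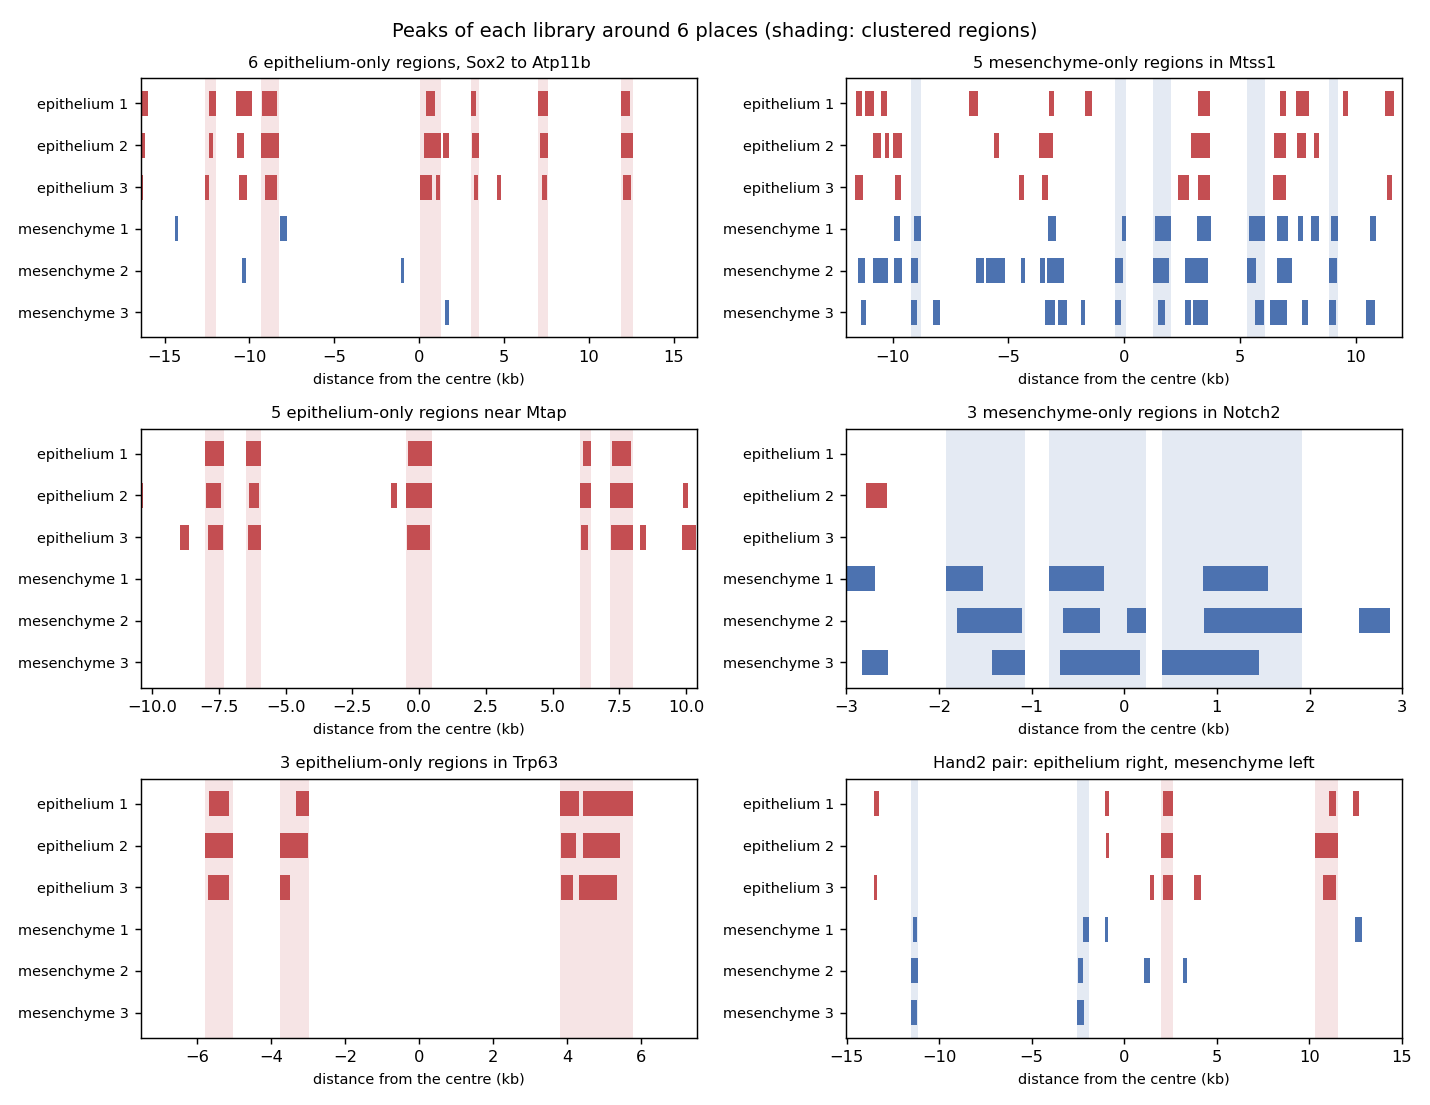
Peaks of each of the 6 libraries (rows, epithelium above mesenchyme) around 6 places, by distance from the centre in kb. Bars are called peaks and shading marks the clustered regions. The epithelial clusters near Mtap and in Trp63 have 0 peaks in the mesenchyme libraries between the first and last member, while the Mtss1 cluster has 5 to 6 epithelium peaks between its members.

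Most clusters were small. Among the epithelial clusters 741 had 2 regions, 94 had 3, 19 had 4, 2 had 5 and 1 had 6. Among the mesenchymal clusters 444 had 2 regions, 36 had 3, 1 had 4 and 1 had 5. The median span was 5791 bp in epithelial clusters and 5858 bp in mesenchymal clusters. The median gap between members was 3868 bp in epithelial clusters and 4362 bp in mesenchymal clusters. At the limit of the rule, the last gap inside it was 9996 bp for epithelium, near Crim1, and 9994 bp for mesenchyme, near Ebf3. The first gaps outside were 10030 bp for epithelium, near Ppp3ca, and 10037 bp for mesenchyme, near Epop. There was no break at the limit, with 69 epithelial gaps of 9 to 10 kb and 74 of 10 to 11 kb, and 42 and 45 mesenchymal gaps in the same ranges.

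Of the epithelium-only regions 18.2% were clustered (17.4 to 18.9), and of the mesenchyme-only regions 13.3% (12.5 to 14.1). The epithelial share was 4.88 percentage points higher, but this order depended on the libraries. Without epithelium library 2 the difference was -1.65 points, and without mesenchyme library 1, 2 or 3 it was -9.65, -4.69 and -5.58 points. The shares also follow how many regions there are to be a neighbour. Per 1000 possible neighbours, 1.78% of epithelium-only regions and 1.76% of mesenchyme-only regions had one of the same tissue within 10 kb. A neighbour of the other tissue within 10 kb was found for 5.87% of epithelium-only regions (5.42 to 6.34) and 7.86% of mesenchyme-only regions (7.27 to 8.49). Per 1000 possible neighbours that was 0.777% and 0.770%. Regions of one tissue thus had neighbours of their own tissue more often than of the other, at about the same rate in epithelium and in mesenchyme. At 1 kb the same-tissue rate was 0.362% for epithelium-only and 0.352% for mesenchyme-only regions per 1000, and the other-tissue rate 0.0649% and 0.0636%. At 100 kb the same-tissue rates were 6.72% for epithelium-only and 8.09% for mesenchyme-only regions and the other-tissue rates 5.97% and 5.31%.

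**Figure D2:**
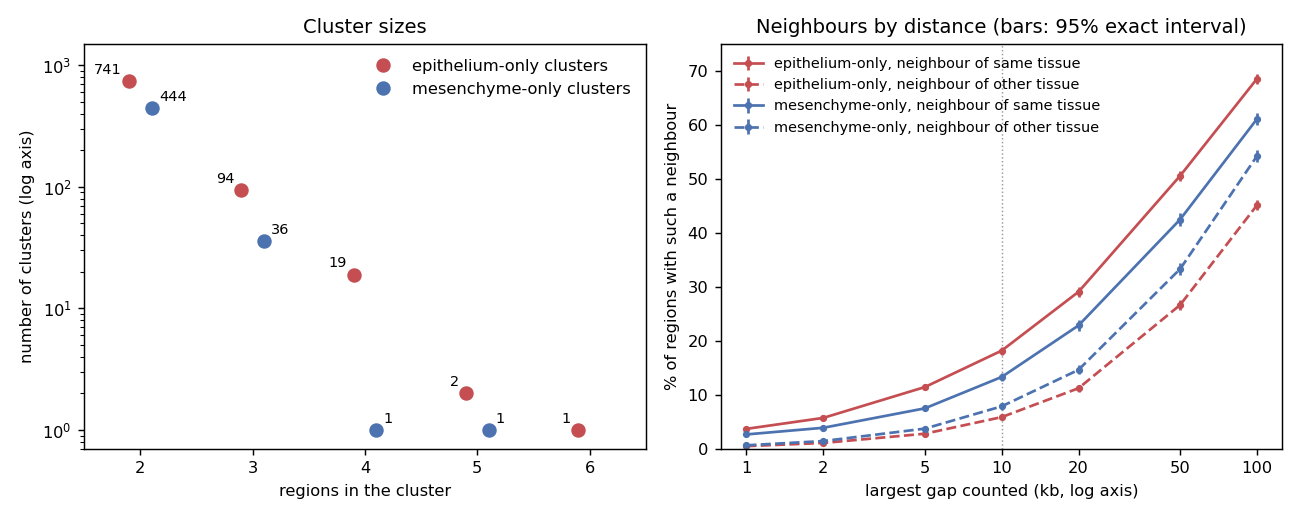
Left, number of clusters (log axis) by the number of regions in them, for epithelium-only (red) and mesenchyme-only (blue) regions. Right, percent of tissue-only regions with a neighbour of the same tissue (solid) or of the other tissue (dashed) within the gap on the x axis (kb, log axis), with exact 95% intervals. At the dotted line of 10 kb the same-tissue shares are 18.2% for epithelium and 13.3% for mesenchyme, above the other-tissue shares of 5.87% and 7.86%.

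Epithelial clusters stood in quieter surroundings than mesenchymal clusters. Of the 857 epithelial clusters, 429 (50.1%, 46.7 to 53.5) had no peak of any mesenchyme library from the first to the last member. Of the 482 mesenchymal clusters, 166 (34.4%, 30.2 to 38.9) had no peak of any epithelium library. A region open in all 6 libraries lay between members in 8.87% of epithelial clusters and in 20.1% of mesenchymal clusters. For clusters of at least 3 regions these shares were 16.4% and 52.6%. A region of the opposite tissue-only kind lay between the members of 12 epithelial and 4 mesenchymal clusters. Nothing at all lay between members in 34.7% of epithelial clusters and 24.9% of mesenchymal clusters.

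The same held library by library. Between the members of epithelial clusters there were 1.38, 1.91 and 1.42 peaks per 10 kb in the epithelium libraries and 1.11, 1.34 and 1.21 in the mesenchyme libraries. Between the members of mesenchymal clusters the epithelium libraries had 1.96, 2.74 and 2.44 peaks per 10 kb and the mesenchyme libraries 2.70, 3.18 and 3.06. Over the whole genome the lists held 0.991 to 1.28 peaks per 10 kb. Mesenchyme libraries were thus near their genome density inside epithelial clusters, while all 6 libraries were above theirs inside mesenchymal clusters. In clusters of at least 3 regions the epithelium libraries had 2.51, 3.80 and 3.44 peaks per 10 kb between mesenchymal members.

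Clustered regions differed little in shape from isolated regions of the same tissue. Their median width was 626 bp in clustered and 590 bp in isolated epithelium-only regions. In mesenchyme it was 573 bp for clustered and 538 bp for isolated regions. Single peaks showed the same order in epithelium, with medians of 436, 508 and 387 bp in the 3 epithelium libraries for clustered regions, against 404, 459 and 361 bp for isolated ones. In mesenchyme the peak medians were 344, 348 and 350 bp for clustered regions against 340, 336 and 341 bp for isolated ones. Regions open in all 6 libraries had a median width of 1493 bp.

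Members lay mostly in introns and between genes, as did all regions found in at least 2 libraries. Of clustered epithelium-only regions 48.3% were intronic, 48.1% lay between genes, 3.02% had their midpoint in an exon and 0.593% covered the start of a protein-coding gene. For isolated epithelium-only regions the shares were 42.0%, 54.6%, 2.97% and 0.503%. Of clustered mesenchyme-only regions 53.6% were intronic, 38.7% lay between genes, 7.36% were exonic and 0.299% covered a start. For isolated mesenchyme-only regions they were 45.1%, 48.8%, 5.71% and 0.412%. Of all regions in at least 2 libraries 41.8% were intronic, 46.7% lay between genes, 7.15% were exonic and 4.28% covered a start. The median distance to the nearest start was 62.5 kb for clustered epithelium-only and 66.2 kb for isolated ones. For mesenchyme it was 33.2 kb for clustered and 42.9 kb for isolated regions, beside 32.5 kb for all regions in at least 2 libraries. Other regions were counted within 10 kb as well, where clustered epithelium-only regions had 3.32 on average and isolated ones 3.29, and clustered mesenchyme-only regions had 6.34 and isolated ones 5.09.

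Chromosomes took unequal shares. Chromosome 11, which is rich in genes, held 2.16% of clustered epithelium-only regions and 10.4% of clustered mesenchyme-only regions, beside 6.94% of all regions found in at least 2 libraries. Chromosome 3 held 9.38% of clustered epithelium-only and 4.48% of clustered mesenchyme-only regions, beside 4.44%. On X there were 43 clustered epithelium-only and 2 clustered mesenchyme-only regions, 2.32% and 0.199% of each set, beside 1.78%. Isolated regions leaned the same way on X, with 3.10% of the epithelium-only and 0.825% of the mesenchyme-only ones.

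For each cluster the closest protein-coding start to its left and to its right was taken, if within 100 kb. Of 21911 symbols, 719 (3.28%) had an epithelial cluster, 609 (2.78%) had a mesenchymal cluster and 38 had both. No gene within that distance was found for 300 of the 857 epithelial clusters and 84 of the 482 mesenchymal clusters. More than 1 cluster was assigned to 47 genes in epithelium and 25 in mesenchyme.

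Transcription factors of epithelium formed the list with the most epithelial clusters. Of its 24 genes 8 had one, and none had a mesenchymal cluster, beside 3.28% and 2.78% of all symbols. With gaps of at most 5 kb 4 of the 24 had an epithelial one, and without epithelium library 1 the count was 13. The mesenchymal count of 0 is near the share of all symbols, and it was 6 without mesenchyme library 1 or 3, 3 without epithelium library 2 and 5 where 1 library of the other tissue could have a peak. Such settings also changed the counts over all symbols, as the last section gives. The shares of all symbols printed beside the lists hold for the main rule only. The 8 were Trp63, Grhl2, Klf5, Tfap2a, Tfap2c, Ehf, Sox2 and Foxe1. An epithelium-only region of any kind, clustered or not, was assigned to 16 of the 24 genes, beside 25.9% of all symbols. A mesenchyme-only region was assigned to 10 of the 24, beside 27.2%. Klf5, a Krüppel-like factor of proliferating epithelium, had 2 clusters, each with 2 regions, 52.9 kb upstream and 38.3 kb downstream of its start. The upstream one lay in introns of another gene, Pibf1. Ehf, an Ets factor of epithelia, had 3 regions in its introns, the nearest 8.58 kb from its start, where the epithelium libraries had 3, 3 and 4 peaks and the mesenchyme libraries 0, 0 and 0. Foxe1, a forkhead factor whose loss causes cleft palate, had 2 regions with the nearest 36.2 kb upstream. Its span was busier, with 6, 6 and 6 peaks in the epithelium libraries and 3, 4 and 4 in the mesenchyme libraries. Near Grhl2, a Grainyhead-like factor, the epithelium libraries had 4, 6 and 2 peaks and the mesenchyme libraries 0, 5 and 3, so counts of peaks across that span overlapped between tissues. Sox2 had a cluster of 2 regions 9.55 kb from its start, apart from the 6-region cluster in the desert.

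Trp63 had more in its body than the assignment shows. Its 208 kb hold 3 epithelial clusters with 7 regions. The first has 2 regions (chr16:25774561-25780639), with 2, 2 and 3 peaks in the epithelium libraries and 0, 0 and 0 in the mesenchyme libraries. The second has 2 regions (chr16:25801628-25804874) with 2, 3 and 2 epithelium peaks against 1, 0 and 0 mesenchyme peaks. It covers the internal start at position 25801916, from which the short Trp63 transcripts lacking the first transactivation domain begin. Those transcripts are the main p63 form of basal epithelium. The third has 3 regions (chr16:25833302-25844871) with 4, 4 and 4 epithelium peaks against 0, 0 and 0. The 2 later clusters lie over 100 kb from the outer start and so were not assigned to the gene.

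Genes of the basal layer came next, with 5 of 16 genes for epithelial clusters and 0 for mesenchymal clusters, beside 3.28% and 2.78% of all symbols. The 0 is near the 2.78% of all symbols, and it was 3 without mesenchyme library 1 and 4 with a peak allowed in 1 library of the other tissue. An epithelium-only region of any kind was assigned to 8 of the 16 and a mesenchyme-only region to 5, beside 25.9% and 27.2% of all symbols. Itga6 encodes the alpha subunit of the hemidesmosome integrin, and its 2 regions stood 220 bp apart, 6.82 kb upstream of the start, with 2, 2 and 2 peaks in the epithelium libraries and 0, 0 and 0 in the mesenchyme libraries. Frem2, a basement membrane protein of the Fraser complex, had 4 regions, the most on this list, with 4, 4 and 5 epithelium peaks and 0, 1 and 0 mesenchyme peaks. Fras1, its partner, had 2 regions in introns with 3, 3 and 3 peaks against 0, 0 and 0. Perp, a desmosomal protein and p63 target, had 3 regions from 1.62 kb past its start.

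Of the 14 periderm genes 0 had an epithelial and 0 a mesenchymal cluster, which in a list of this size is near the share of all symbols. Without epithelium library 1, 3 had an epithelial cluster, and without mesenchyme library 1 or 3, 3 had a mesenchymal one. An epithelium-only region of any kind was assigned to 4 of the 14 and a mesenchyme-only region to 5, beside 25.9% and 27.2% of all symbols. Junction and splicing genes had 2 of 24 (8.33%) with an epithelial cluster, beside 3.28% of all symbols. The 2 were Dsp and Pkp1, which encode the desmosomal proteins desmoplakin and plakophilin 1. The Dsp cluster lay 6.80 kb inside the gene, with 2, 2 and 2 peaks in the epithelium libraries and 0, 0 and 0 in the mesenchyme libraries. The Pkp1 cluster had 4, 4 and 4 against 3, 1 and 1.

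Signals made by epithelium gave 4 of 21 genes. Pthlh, which encodes parathyroid hormone-like hormone, had 2 clusters with 5 regions, 25.6 and 79.9 kb upstream, and neither had a mesenchyme peak. Sostdc1, a secreted BMP and Wnt antagonist, had 2 regions 46.1 kb upstream. Edaradd, the adaptor of the ectodysplasin receptor, had 3 regions in its body, with 6, 5 and 9 epithelium peaks and 4, 3 and 2 mesenchyme peaks. Fgfbp1, which carries fibroblast growth factors, had the only cluster assigned to these lists that covered the outermost start of a gene. Its 2 regions stood 436 bp apart, with 2, 2 and 2 peaks against 0, 0 and 0. A mesenchymal cluster of Lhx8, described below, covered the start of another transcript of that gene. Notch1, the 1 gene of this list with a mesenchymal cluster (4.76%, beside 2.78% of all symbols), had it 50.5 kb from its start. That cluster lay 5.84 kb from the start of Egfl7, an endothelial gene, and had 5, 4 and 3 epithelium peaks and 6, 7 and 8 mesenchyme peaks.

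In the mesenchymal lists more genes had a mesenchymal than an epithelial cluster. Of 38 palate mesenchyme transcription factors, 6 (15.8%) had a mesenchymal cluster and 1 (2.63%) an epithelial one. Of all symbols, 2.78% and 3.28% had one, so the epithelial count is near that share. Lhx8, a LIM-homeobox factor needed for palate closure, had 2 mesenchymal clusters. The nearer, 4.33 kb upstream at its closest region, had 4, 5 and 6 peaks in the epithelium libraries and 8, 8 and 8 in the mesenchyme libraries. The farther had 1, 2 and 2 against 4, 5 and 5. Prrx1, a paired-related homeobox factor of limb and face mesenchyme, had 2 regions in its introns from 7.63 kb, with 0, 1 and 0 epithelium peaks and 4, 3 and 5 mesenchyme peaks. Snai1, Ebf1 and Ebf3 had 1 cluster each, and that of Ebf1 lay in introns of Rnf145, 83.8 kb from the Ebf1 start. With gaps of at most 5 kb, 0 of the 38 genes had a mesenchymal cluster. The mesenchymal count over all symbols was lower in that setting too. Nfib, also on this list, held 3 epithelial clusters in its body that lay too far from its start to be assigned.

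Hand2, a bHLH factor of branchial arch mesenchyme, had both. Its epithelial cluster (chr8:57401136-57410677) had 2, 2 and 3 peaks in the epithelium libraries and 0, 1 and 0 in the mesenchyme libraries. Its mesenchymal cluster (chr8:57387594-57397248), 3887 bp away, had 0, 0 and 0 epithelium peaks and 2, 2 and 2 mesenchyme peaks. Both lay between Hand2 and Scrg1, 80.5 kb from the Hand2 start for the epithelial and 66.8 kb for the mesenchymal cluster. Across the genome, 6 pairs of clusters of opposite tissue lay within 10 kb of each other, and 1 pair, in Ptgfrn, overlapped.

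Matrix genes had 6 of 32 (18.8%) with a mesenchymal cluster and 2 (6.25%) with an epithelial one, beside 2.78% and 3.28% of all symbols. Col6a1 and Col6a2, which encode chains of collagen VI, shared a cluster between them with 0, 0 and 0 epithelium and 2, 2 and 2 mesenchyme peaks. Col6a1 had a further one in introns of Pcbp3, 82.7 kb from the Col6a1 start. Lum and Dcn, neighbouring genes of the small proteoglycans lumican and decorin, also shared a cluster with 0, 0 and 0 against 2, 2 and 2. Fbln5 had 1, and Thbs1 had an epithelial one in an intron of Fsip1. When peaks under 300 bp were left out, 0 of the 32 matrix genes had a mesenchymal cluster and 1 had an epithelial one. The mesenchymal count over all symbols was lower in that setting too.

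Tnc, the gene of tenascin C, an extracellular matrix protein, held clusters of both tissues in different places. Its 2 epithelial clusters, with 3 and 2 regions, lay in the gene body, 60.2 and 35.6 kb from the start. They had 5, 5 and 4 peaks and 2, 3 and 3 peaks in the epithelium libraries, against 0, 1 and 0 and 1, 1 and 1 in the mesenchyme libraries. Its mesenchymal cluster of 2 regions began 1.16 kb from the start, with 0, 0 and 0 epithelium peaks and 2, 2 and 2 mesenchyme peaks.

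Mesenchymal signals gave 3 of 27 genes (11.1%) with a mesenchymal cluster, Wnt11, Frzb and Cdh2, beside 2.78% of all symbols. Epithelial clusters were assigned to 1 gene (3.70%), near the 3.28% of all symbols. Frzb, a secreted Wnt antagonist of chondrogenic mesenchyme, had 0, 0 and 0 epithelium and 4, 4 and 2 mesenchyme peaks. Gli3, the Hedgehog effector, had 2 epithelial clusters with 5 regions in its introns and none of mesenchyme. Osteogenic genes had 0 epithelial and 2 mesenchymal of 15, Alpl and Dlx6, beside 3.28% and 2.78% of all symbols. In a list of this size 0 is near the share of all symbols. The Alpl cluster, 9.34 kb upstream of the gene of tissue-nonspecific alkaline phosphatase, had 0, 0 and 0 against 2, 2 and 2 peaks.

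Among lists of other cell types, endothelial genes had 1 of 16 with a mesenchymal cluster, Egfl7, and 0 with an epithelial one. Immune (13), muscle (11), nerve and glia (11) and erythroid (6) genes had 0 clusters in either tissue, as had the 14 control genes. At 3.28% and 2.78% of all symbols, lists this short can hold 0 without standing apart. The zeros hold for the listed genes only. Mesenchymal clusters covered the starts of Mb, the myoglobin gene, and Pf4, the platelet factor 4 gene, which are on none of the lists. With 1 library left out these zeros reached at most 3, for epithelial clusters of endothelial genes without epithelium library 3 and for mesenchymal clusters of immune genes without mesenchyme library 1. Beside 25.9% of all symbols, an epithelium-only region of any kind was assigned to 6 endothelial, 1 immune, 1 muscle and 3 neural or glial genes and to 0 erythroid genes. Beside 27.2%, a mesenchyme-only region was assigned to 6 endothelial, 6 immune, 2 muscle and 2 neural or glial genes and to 0 erythroid genes, and their part in the mesenchymal clusters was not tested.

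**Figure D3:**
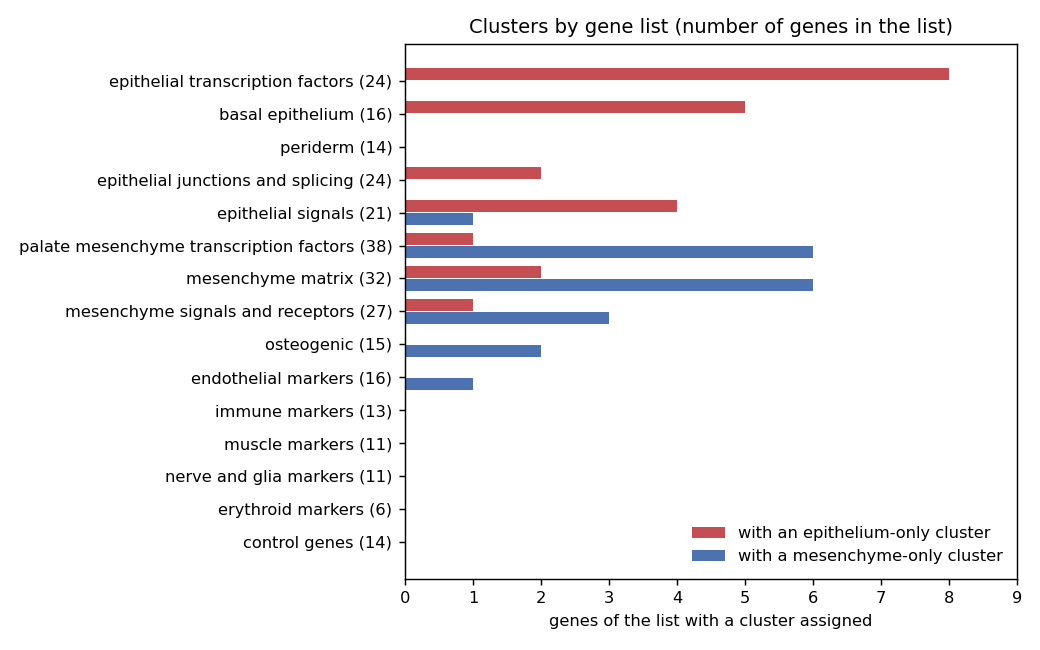
Number of genes of each list that were assigned an epithelium-only cluster (red) or a mesenchyme-only cluster (blue), with the number of genes in the list in brackets. Epithelial transcription factors have 8 of 24 with an epithelial cluster and 0 with a mesenchymal one, against 3.28% and 2.78% of all protein-coding symbols.

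The ranking by size named other genes. After the desert cluster, the epithelial list ran through a desert between Adamts16 and Irx1 with 5 regions, and a cluster centred 72.2 kb before Mtap with 5 regions and 5, 6 and 5 epithelium peaks against 0, 0 and 0. A further cluster of 4 regions was centred 42.9 kb before Mtap, which gave this methionine salvage gene 9 clustered regions, the most assigned to any gene within 100 kb. Introns of Etl4 and Arid5b followed with 4 regions each. Arid5b, an AT-rich interaction domain factor, held 3 clusters with 9 regions in its 186 kb, the most in any gene body. Col8a1, the interval between Tcerg1l and Ppp2r2d, Pfkp and the interval between Camk1g and Plxna2 completed the 10. With peaks of at least 300 bp the Tcerg1l to Ppp2r2d and Pfkp clusters were lost. The Camk1g to Plxna2 cluster had 9, 11 and 9 epithelium peaks against 5, 5 and 5.

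On the mesenchymal side the second cluster had 4 regions between Minos1 and Capzb, with 2, 4 and 5 epithelium peaks and 9, 8 and 7 mesenchyme peaks. The other 8 had 3 regions, in or near Notch2, Actn1, Myl4 and Itgb3, Zfp618, Nek2, Rere, Limch1 and Tab1. Like the Notch2 cluster, that in Limch1 had 0, 0 and 0 epithelium peaks, with 3, 4 and 5 in mesenchyme. In the Actn1 cluster the groups overlapped, with 1, 6 and 7 epithelium peaks and 6, 7 and 7 mesenchyme peaks. In the Nek2 cluster they overlapped too, with 3, 5 and 3 against 8, 12 and 5. The Actn1, Nek2 and Tab1 clusters were lost with gaps of at most 5 kb, and the Myl4, Zfp618, Rere and Tab1 clusters with peaks of at least 300 bp.

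**Figure D4:**
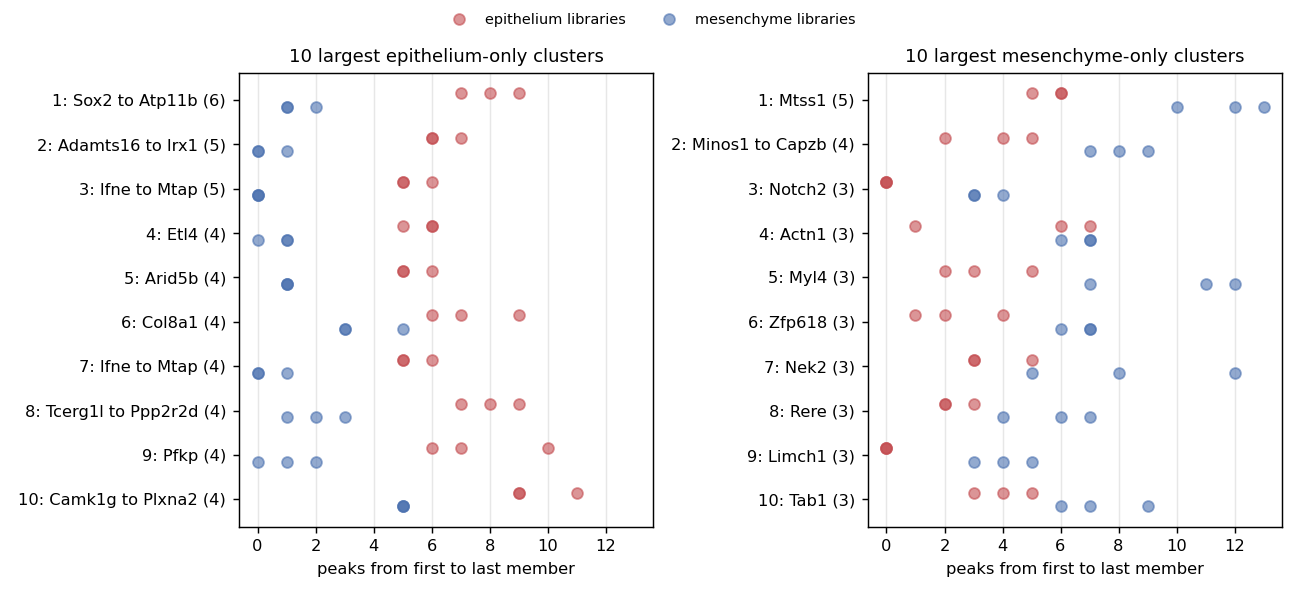
Number of peaks from the first to the last member (x axis) in each of the 3 epithelium (red) and 3 mesenchyme (blue) libraries for the 10 largest clusters of each tissue, with the number of regions in brackets. The epithelial clusters have 0 to 5 mesenchyme peaks, and only the mesenchymal clusters in Notch2 and Limch1 have 0 epithelium peaks in all libraries.

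Further genes were picked after their values were seen. Nfib, which encodes a transcription factor of the nuclear factor I family, is on the list of palate mesenchyme transcription factors. Its body held 3 epithelial clusters with 6 regions and no mesenchymal one. Each epithelial cluster had 0, 0 and 0 mesenchyme peaks. All lay over 100 kb from the Nfib start, so the list counts leave them out. Nfib was assigned 2 mesenchyme-only regions, which were not clustered. Of 11 epithelial clusters that covered the start of a gene, 6 had no mesenchyme peak, at Fgfbp1, Scel (sciellin, a cornified envelope protein), Pof1b (an epithelial actin-binding protein), Vit, Rbbp8 and Minar2. The 3 mesenchymal clusters at a start covered those of Pf4, Lrrc2 and Mb. Counting every annotated transcript of protein-coding genes, 39 of the 1856 clustered epithelium-only regions and 21 of the 1005 clustered mesenchyme-only regions covered a start.

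The tissues differed in base composition, while clustered and isolated regions of a tissue had the same median. The median GC content of the central 200 bases was 46% in clustered and 46% in isolated epithelium-only regions, 51% in clustered and 51% in isolated mesenchyme-only regions, and 55.5% in regions open in all 6 libraries. At least 50% of the window was soft-masked repeat in 5.50% of clustered and 10.8% of isolated epithelium-only regions, and in 9.75% of clustered and 14.8% of isolated mesenchyme-only regions, beside 20.8% of those in at least 2 libraries. Windows were then searched for 23 consensus motifs on both strands. Overlapping matches of different motifs were each counted. For 13 motifs the intervals of clustered epithelium-only and clustered mesenchyme-only regions did not overlap, 11 of them higher in epithelium and 2 higher in mesenchyme.

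The p63 dimer stood in 2.21% of clustered epithelium-only regions (1.59 to 2.98), against 0.299% of clustered mesenchyme-only regions (0.0616 to 0.870) and 0.506% of regions in at least 2 libraries. The Grainyhead-like letters AACCNGTT stood in 3.83% of clustered epithelium-only regions and 0.597% of clustered mesenchyme-only regions, beside 1.55%. TEAD letters (GGAATG) stood in 20.9% and 11.6%, beside 11.5%, and AP-1 letters (TGANTCA) in 13.6% and 8.46%, beside 6.18%. SOX letters (AACAANG) stood in 17.5% of epithelial and 7.56% of mesenchymal members, beside 9.32%. PITX letters (TAATCC) stood in 13.6% and 6.17%, beside 5.66%. For these 6 the mesenchymal members were near or below the share of all regions and the epithelial members above it, except AP-1, where both were above it.

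The other 7 motifs were an E-box and those of MEIS, ETS, RUNX, C/EBP, GATA and TCF/LEF factors. The E-box CAGGTG stood in 21.6% of clustered epithelium-only and 14.1% of clustered mesenchyme-only regions, beside 20.1% of those in at least 2 libraries. MEIS letters (TGACAG) stood in 20.7% and 15.6%, beside 15.8%. ETS letters (AGGAAG) stood in 22.8% of epithelial and 29.5% of mesenchymal members, beside 25.6%. RUNX letters (TGTGGTT) stood in 6.14% and 9.35%, and both were above the 4.56% of all regions. C/EBP letters (TTGCNNAA), GATA letters (AGATAA) and TCF/LEF letters (TTCAAAG) stood in 10.2%, 10.6% and 6.57% of epithelial members against 6.37%, 6.37% and 2.59% of mesenchymal members. Of regions in at least 2 libraries, 6.36% held the C/EBP, 6.13% the GATA and 3.18% the TCF/LEF letters. In windows of 45 to 55% GC, a limit chosen after seeing the data, intervals stayed apart for 8 of the 13 motifs. The differences, epithelium minus mesenchyme, were then 10.5 percentage points for CAGGTG, 9.16 for TEAD, 7.50 for SOX, 5.72 for MEIS, 5.51 for AP-1, 2.52 for the Grainyhead-like letters, 1.88 for the p63 dimer and -3.82 for RUNX. For the other 5 the intervals overlapped, with differences of 4.03 for PITX, 0.89 for C/EBP, 0.65 for GATA, 0.62 for TCF/LEF and -5.21 for ETS. The part of base composition in these shares was not tested. Without mesenchyme library 1 or 3, or without epithelium library 3, the RUNX intervals overlapped.

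Clustered and isolated regions of one tissue had much the same motif shares. For the p63 dimer they were 2.21% in clustered and 2.48% in isolated epithelium-only regions, and for the Grainyhead-like letters 3.83% and 3.80%. PITX letters were the only ones of the 23 whose intervals for clustered and isolated epithelium-only regions did not overlap, with 13.6% (12.1 to 15.3) of clustered and 10.9% (10.2 to 11.6) of isolated regions. The p63 dimer never stood in more than 1 region of a cluster, and 41 epithelial clusters had 1. The Grainyhead-like letters stood in at least 2 regions of 3 epithelial clusters, TEAD letters of 52, the E-box CAGGTG of 46, MEIS letters of 45 and ETS letters of 44. In mesenchymal clusters ETS letters stood in at least 2 regions of 46 and RUNX letters of 8, among them the Mtss1 and Notch2 clusters shown above. Epithelial clusters had 2 with RUNX letters in at least 2 regions.

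**Figure D5:**
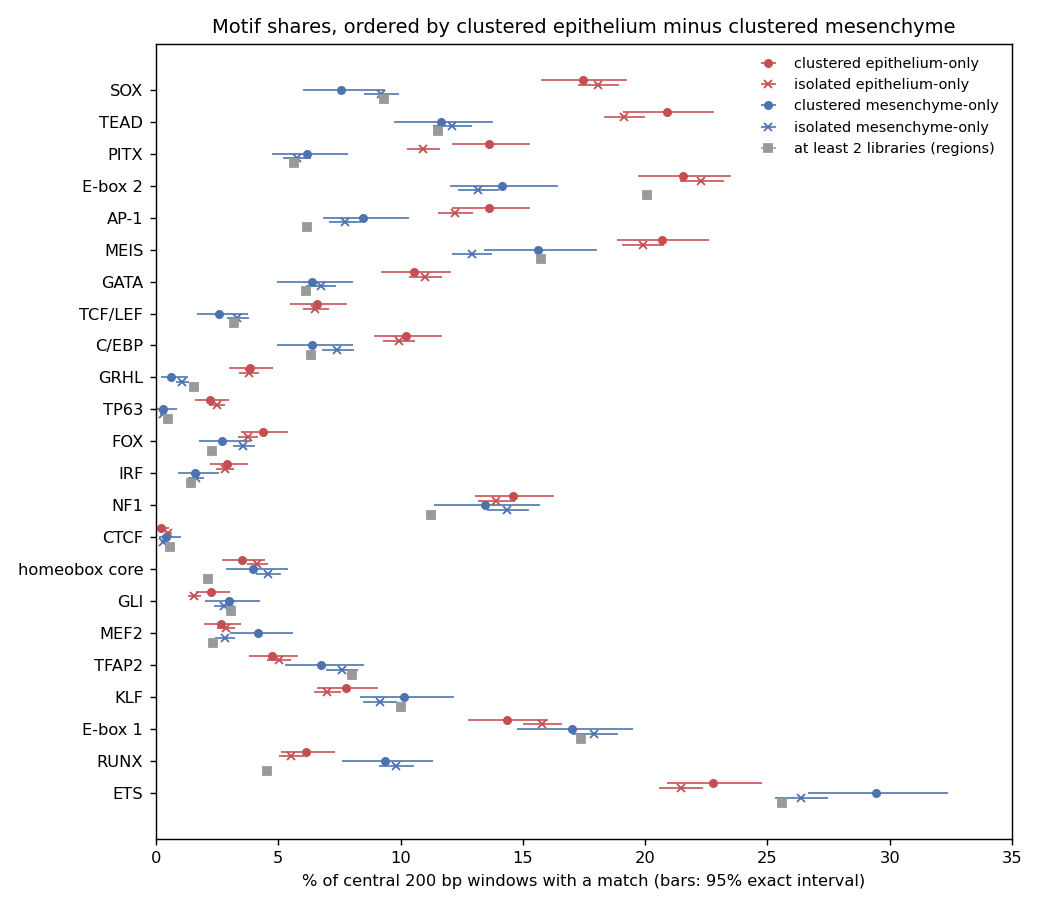
Percent of central 200 bp windows with at least 1 match (x axis) for 23 motifs (rows), in clustered (circles) and isolated (crosses) epithelium-only (red) and mesenchyme-only (blue) regions and in all regions found in at least 2 libraries (grey squares), with exact 95% intervals. E-box 1 is CATCTG and E-box 2 is CAGGTG. SOX letters are at the top with 17.5% of clustered epithelium-only and 7.56% of clustered mesenchyme-only regions, and ETS letters at the bottom with 22.8% and 29.5%.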

How the data were processed

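The authors deposited a list of peaks for each of 6 ATAC-seq libraries, holding positions only (chromosome, start and end, mm10), with no height, score or p-value. Reads, according to the submitters' processing notes and the methods, were trimmed (Trimmomatic 0.38), aligned (Bowtie2) and stripped of PCR duplicates (SAMtools), fragments under 100 bp were kept as nucleosome-free, and peaks were called library by library (MACS2 2.1.1). No source used here gives the threshold for a peak, and without reads the depth is unknown. Peaks were merged, called by presence and chained with Python 3.11.15, numpy 2.4.6 and scipy 1.17.1, after the steps were tested on simulated data. Genes came from GENCODE M21 and sequence from GRCm38.p6. Clusters named were the 10 with the most regions in each tissue, ties by bases covered, with the genes assigned to them and those members of 15 gene lists (282 genes) that had a cluster, of which 1 is not reported here. The members and lists were chosen with earlier results of these data known. Alternatives changed the gap, overlap, peak width, presence rule and gene assignment, or left out a library.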

Additional observations from a re-analysis of the deposited data

How the results depend on the processing

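Counts followed the rule closely. With gaps of at most 5 kb there were 1167 clustered epithelium-only regions in 554 clusters (11.4%) near 439 genes and 566 mesenchyme-only regions in 277 clusters (7.49%) near 340 genes, a difference of 3.94 points. At 20 kb there were 2968 in 1301 clusters (29.1%) near 1132 genes and 1726 in 791 clusters (22.8%) near 1032 genes, a difference of 6.23 points. Allowing a peak in 1 library of the other tissue gave 5417 in 2393 clusters (27.9%) near 2209 genes and 7044 in 2989 clusters (34.4%, largest 9) near 3415 genes, which reversed the difference to -6.51 points. With peaks of at least 300 bp the epithelial share was 16.2%, the mesenchymal counts were 667 regions, 320 clusters and 401 genes, and the difference was 3.40 points. Measured between midpoints, the epithelial share was 17.4%. With a base shared by all 3 peaks, an alternative chosen after seeing the data, the mesenchymal share was 11.5% and the difference 6.25 points. Leaving out a library loosens the rule, so counts grew by construction. Epithelial regions ranged from 2625 to 5596, clusters from 1197 to 2476, shares from 20.4 to 26.7%, the largest cluster from 6 to 7 regions and genes from 1031 to 2132. Mesenchymal regions ranged from 1976 to 6059, clusters from 925 to 2679, shares from 18.5 to 30.0%, the largest cluster from 5 to 8 regions and genes from 1164 to 3155. The difference ranged from -9.65 to 7.32 points and was below 0 without epithelium library 2 (-1.65), mesenchyme library 1, 2 (-4.69) or 3 (-5.58); the cause was not tested. The 6-region epithelial cluster kept 5 to 7 regions in all alternatives, while the Mtss1 cluster had 3 with a shared base, with merging at 100 bp of overlap or without mesenchyme library 2, and 2 with peaks of at least 300 bp. Of the 10 named clusters of each tissue, 2 epithelial and 6 mesenchymal ones had 0 regions in at least 1 alternative (gaps of at most 5 kb, peaks of at least 300 bp or, for Myl4, also a shared base). None of the 13 motif differences changed sign in the alternatives run for them, but intervals stayed apart for 11 of them in 300 bp windows (not RUNX, MEIS), 12 in windows under 50% masked (not RUNX), 8 in windows of 45 to 55% GC, and 11 to 13 with 1 library left out (overlapping for RUNX, MEIS or C/EBP). No paired analysis was possible because the result comes from presence calls without a test, and the replicate numbers tie no epithelium library to a mesenchyme library. Peak lists without heights limit what can be said of regions near the calling threshold.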
